A study of Mus musculus with 12 samples.

Results

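Bipolar cells are the interneurons that carry photoreceptor signals to amacrine and ganglion cells. Rod bipolar cells and ON cone bipolar cells depolarise when light comes on, through the metabotropic receptor mGluR6 and the channel TRPM1, whereas OFF cone bipolar cells respond to the same glutamate through kainate and AMPA receptors. The genes described are 9 transcription factor and marker genes of these cells, found by Entrez ID among the 27179 gene IDs of each count file. All 9 were in the files and all passed the filter on low counts.

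The 9 genes were ordered by the bipolar class they mark in mouse retina. Rod bipolar cells are represented by 4 genes. Prkca encodes protein kinase C alpha, the standard rod bipolar antigen. Bhlhe23 is a basic helix-loop-helix factor that rod bipolar cells need to mature. Car8 encodes a carbonic anhydrase-related protein, and Sebox is a homeobox gene. Another 2 genes belong to rod and cone bipolar cells, Cabp5, a calcium-binding protein, and Prdm8, a PRDM zinc finger factor needed by rod bipolar cells and by an OFF cone type. Scgn, the calcium-binding protein secretagogin, and Vsx1, a homeodomain factor required for OFF cone bipolar differentiation, mark cone bipolar cells of both response signs. Grik1, the kainate receptor subunit GluK1, stands for OFF cone bipolar cells. None of the 9 is restricted to ON cone bipolar cells, so that class was followed through a separate list. Several of these genes, among them Prkca, Prdm8 and Grik1, are also made by other retinal neurons.

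Whole retina RNA was sequenced from mice with a glia-specific knockout of Abca1, a cholesterol and phospholipid exporter (3m-GliaKO and 12m-GliaKO), and from controls (3m-Control and 12m-Control). The mice were 3 or 12 months old, and each of the 4 groups had 3 libraries. The extraction text of the labels calls the mice Astro-KO. The sources used here do not give the promoter driving the deletion, the genotype of the controls, or the strain and sex of the mice. Whether each library is a separate animal is also not stated, so every p-value reflects only how these libraries vary, which may be technical variation.

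Library totals ran from 29027099 to 30438026 counts. Abca1 itself stood at 20.7 to 26.6 CPM in control and 24.3 to 27.5 CPM in KO retina at 3 months, and at 27.7 to 32.7 and 27.4 to 42.5 CPM at 12 months. It did not pass the test at 3 months (log2 fold change 0.21 ± 0.14 SE, adjusted p = 0.70) or at 12 months (0.24 ± 0.14 SE, adjusted p = 0.65, edgeR). Abca1 was thus not lower in KO retina by these counts. Whole retina was counted, and the glial share of Abca1 RNA was not measured. Retinal markers were present throughout, with 8 rod photoreceptor genes summing to between 44933 and 53431 CPM per library. Apart from the rest stood 3m-Control replicate 2. Its distance from the other 2 libraries of its group, as chi-square over degrees of freedom, was 43.1 and 41.9. Counting error alone gives about 1, or more where both reads of a pair are counted. For 12m-GliaKO replicate 1 the distance was 21.6 and 24.9, and all other replicate pairs lay between 3.52 and 9.30. The 6 lens markers summed to 3899 CPM in 3m-Control replicate 2 and to 32.4 and 145 CPM in replicates 1 and 3 of that group. In the other groups they summed to at most 24.6 CPM, so leaving out replicate 2 does not remove the difference in lens RNA. The 6 skeletal muscle markers summed to 46.1 to 54.7 CPM in 3m-Control and to at most 5.05 CPM in the other groups. Some named log2 fold changes of the 9 genes moved by over 1.5 times or turned sign without either library. For these the value without it is given beside it or among the ranges in the closing section.

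Promoter sequence is shown for Prdm8, the only one of the 9 genes that passed the test in any comparison, and for Bhlhe23, whose level moved the other way with age in control retina. Both are the 250 bases before a RefSeq start site (GRCm38.p6), written 5′ to 3′ on the gene's strand, and neither overlaps an exon of the GENCODE annotation. The start used for Prdm8 lies within the annotated span of the gene (chr5:98167203-98187454), and that for Bhlhe23 is at the edge of its span (chr2:180774381-180776900). Capitals mark CCAAT (or its reverse ATTGG) and the E-box CAGCTG.
Prdm8 (chr5:98180619-98180868, plus strand): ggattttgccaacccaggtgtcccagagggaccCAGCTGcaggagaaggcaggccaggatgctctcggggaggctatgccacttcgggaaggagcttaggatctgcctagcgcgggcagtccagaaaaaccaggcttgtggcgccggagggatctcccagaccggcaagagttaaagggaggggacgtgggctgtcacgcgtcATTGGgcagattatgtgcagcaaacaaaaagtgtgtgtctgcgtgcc
Bhlhe23 (chr2:180776901-180777150, minus strand): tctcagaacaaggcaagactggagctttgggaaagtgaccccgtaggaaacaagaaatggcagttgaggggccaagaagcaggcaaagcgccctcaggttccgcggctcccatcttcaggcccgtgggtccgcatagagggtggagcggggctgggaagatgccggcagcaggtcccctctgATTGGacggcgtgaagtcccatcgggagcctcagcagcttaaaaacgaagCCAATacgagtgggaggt

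The RefSeq table held a start site for 7 of the 9 genes, those besides Grik1 and Car8. CCAAT was found on either strand in 4 of the 7 windows (Bhlhe23, Cabp5, Prdm8 and Sebox), against 33.8% of 32851 windows of the same length over all genes. CAGCTG was found in 2 (Prdm8 and Vsx1), against 13.0%. Of the 250 bases of the Vsx1 window, 223 lie in exons of the GENCODE annotation. The windows of Cabp5, Prkca and Sebox overlap such exons by 23, 40 and 66 bases. TAATCC, the core recognised by Otx2 and Crx, was found in Cabp5 alone, against 6.25% of all windows. TAATTA, bound by many other homeodomain factors, and the E-box CATATG were in none of the 7, against 4.84% and 3.46%. None of the motifs overlaps another in the printed windows, and a match is a description of letters only.

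Scaled for exon length, the 9 genes fell into 3 ranges of level. Prdm8 was highest, at 76.7 ± 9.03 CPM per kilobase of exon (SD over 12 libraries), and its lowest library, at 68.3, lay above every library of the other 8 genes. A middle range held Sebox (41.2 ± 4.08), Cabp5 (38.5 ± 2.21), Scgn (34.2 ± 2.68), Prkca (32.1 ± 2.47) and Bhlhe23 (31.5 ± 2.25, same scale, n = 12), where each gene differed from the next by less than the sum of their SDs. Grik1 (11.4 ± 0.575), Car8 (11.3 ± 1.09) and Vsx1 (10.6 ± 1.04, same scale, n = 12) formed a low range, with no library above 13.3. The lowest library of the middle range was Prkca in 3m-Control replicate 2, at 26.3, so the 3 ranges did not overlap. Rod bipolar markers were thus spread over the middle and low ranges, as were cone bipolar markers. The exon lengths are those of all annotated isoforms together (1359 bases for Sebox, 8992 for Prkca), so a gene whose retinal isoforms are short is understated. Exons of Bhlhe23 overlap those of Gm14343 on the same strand and exons of Prkca those of Apoh on the other, and reads there could have been shared.

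**Figure D1:**
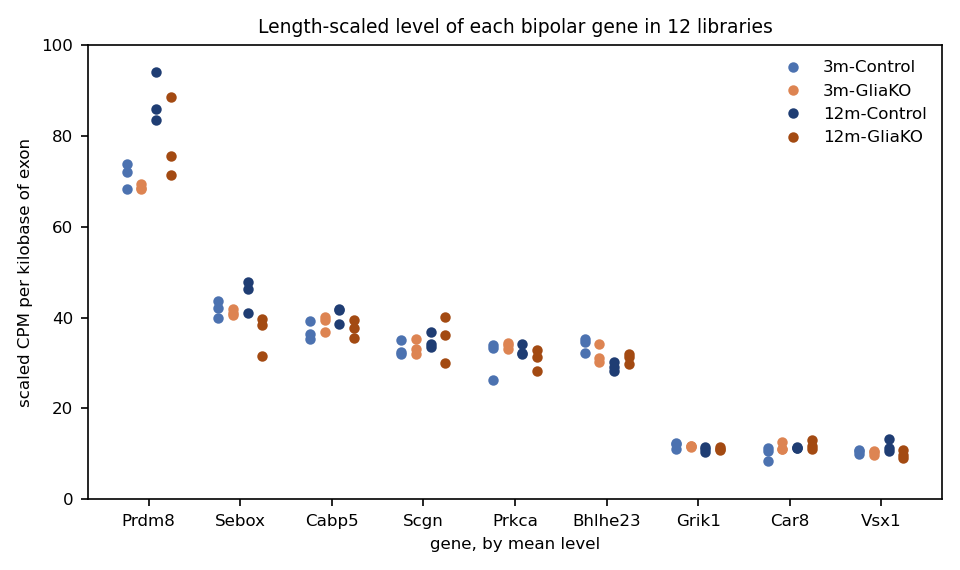
Length-scaled level (TMM-scaled CPM per kilobase of exon, linear axis) of each of the 9 bipolar genes, 1 point per library, coloured by group. Prdm8 lies above 68 in all 12 libraries, 5 genes lie between 26.3 and 47.9, and Grik1, Car8 and Vsx1 lie at or below 13.3.

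The counts behind these values ran from 976 (Car8) to 13608 (Prdm8) per library. Over the 12 libraries the scaled CPM of Grik1 varied least, with a coefficient of variation of 5.04%, followed by Cabp5 at 5.73%. Prdm8 varied most, at 11.8%, and Sebox, Vsx1 and Car8 lay near it at 9.90%, 9.78% and 9.70%. Counting error alone would give 0.951% for Prdm8 and 2.79% for Car8, less than the spread between libraries in both.

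**Figure D2:**
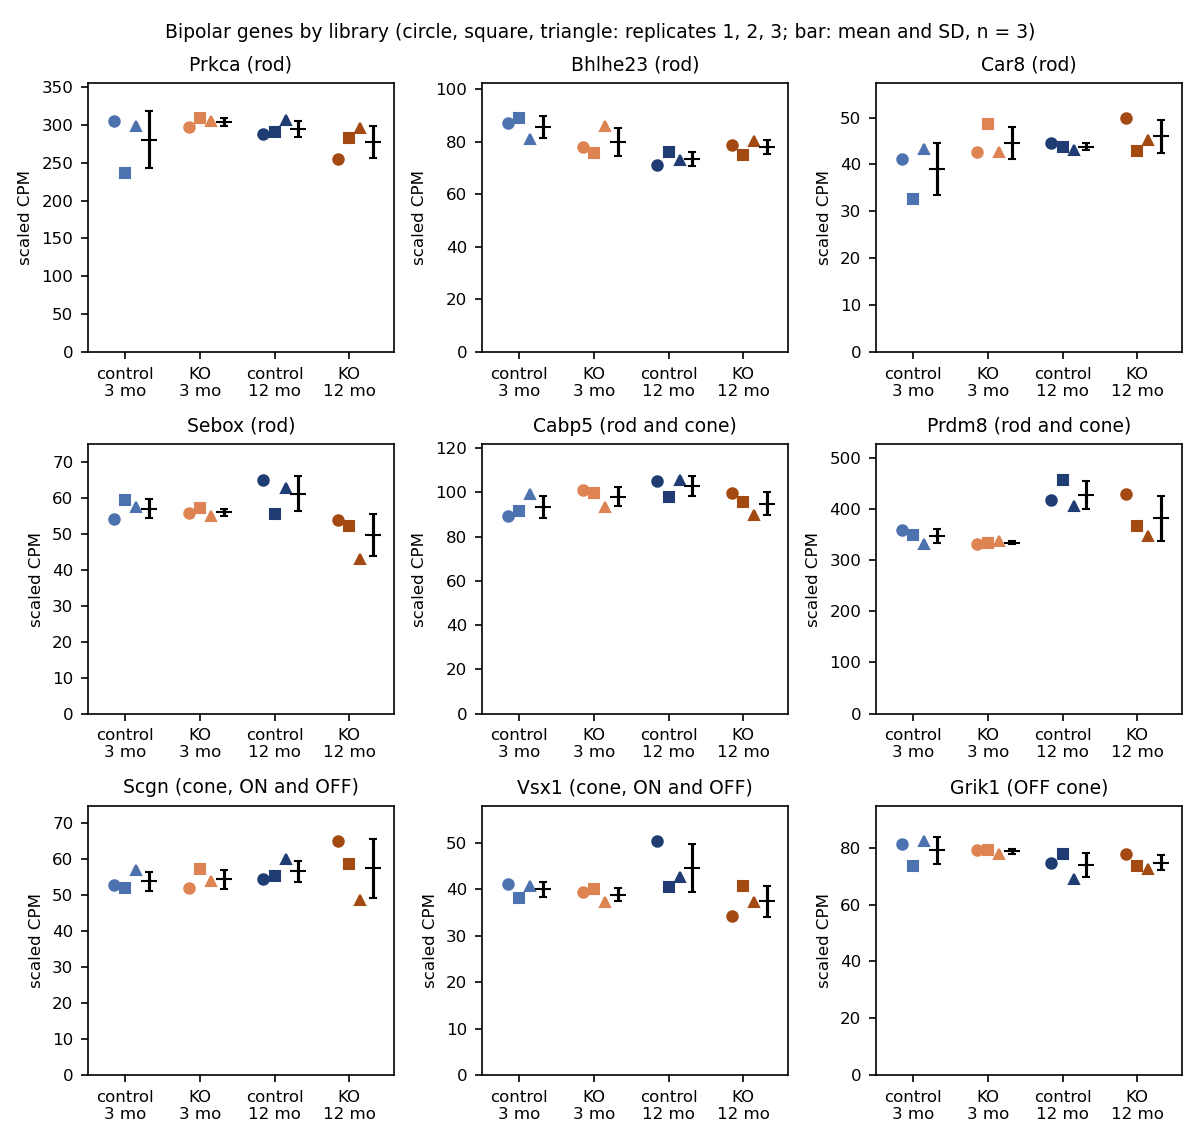
Scaled CPM of the 9 bipolar genes in each library (circle, square and triangle for replicates 1, 2 and 3), with the mean and SD of each group of 3 as a bar, on linear axes from 0. In both genotypes the 3 points of Prdm8 at 12 months lie above the 3 at 3 months, and Prkca and Car8 have their lowest library in 3m-Control replicate 2.

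At 12 months KO retina was set against control. None of the 9 genes passed an adjusted p of 0.05 over all genes (edgeR quasi-likelihood test), where 0.212% of the 16475 genes tested were called, and 3 had an unadjusted p below 0.05 (Sebox, Vsx1 and Prdm8, all lower in KO), as did 8.7% of all genes. DESeq2 also called 0 of the 9. By class, 2 of 4 rod bipolar genes, both rod and cone genes, 1 of 2 cone genes and not Grik1 had a lower fitted level in KO retina. The median log2 fold change was -0.0083 for the 4 rod bipolar genes and -0.089 for all 9, beside -0.0020 over all genes tested. In whole retina, fewer cells of a type and less RNA per cell cannot be told apart. The X-inactivation RNA Xist also separated these groups, at 0.167 to 0.203 CPM in 12-month control, 52.3 to 85.5 CPM in 12-month KO and at most 0.609 CPM in all 3-month libraries. The Y-linked gene Ddx3y was present in both 12-month groups, at 30.6 to 38.2 and 33.7 to 45.4 CPM. The part of sex in the 12-month KO values was not tested.

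Sebox (chr11:78503513-78505081, plus strand) had the lowest fold change at 12 months. It stood at 65.1, 55.7 and 62.8 CPM in control replicates 1 to 3, and at 53.8, 52.3 and 42.9 CPM in KO replicates 1 to 3. All 3 KO values lay below all 3 controls, with KO replicate 3 the lowest of the 12 libraries, and Sebox was the only one of the 9 genes whose groups did not overlap, a condition met by 16.6% of all genes tested. The means were 61.2 ± 4.93 and 49.7 ± 5.89 CPM (SD, n = 3), with a log2 fold change of -0.30 ± 0.088 (SE, 95% interval -0.48 to -0.12) and adjusted p = 0.24 (edgeR). Without KO replicate 3 the log2 fold change was -0.21. With any 1 library left out it did not pass, at an adjusted p of 0.074 without 3m-Control replicate 2 and more without any other (edgeR).

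Vsx1 (chr2:150680702-150689137, minus strand), the cone bipolar homeodomain factor, was at 50.3, 40.6 and 42.5 CPM in 12-month control and at 34.2, 40.8 and 37.3 CPM in 12-month KO retina. Control replicate 1 was its highest library and KO replicate 1 its lowest, and the groups overlapped. The log2 fold change was -0.25 ± 0.092 (SE, 95% interval -0.44 to -0.058), with adjusted p = 0.44 (edgeR). It was -0.15 without control replicate 1 and -0.19 without KO replicate 1. Prdm8 overlapped as well, at 418, 458 and 406 CPM in control and 430.0, 368 and 347 CPM in KO retina, KO replicate 1 lying among the controls. Its log2 fold change was -0.16 ± 0.077 (SE), with adjusted p = 0.57 (edgeR), -0.26 without KO replicate 1 (adjusted p = 0.15) and -0.099 without KO replicate 3.

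The other 6 genes lay closer together at 12 months. Prkca, the rod bipolar kinase, had 288 to 307 CPM in control and 254 to 296 CPM in KO retina (log2 fold change -0.089 ± 0.085 SE), the low KO value being replicate 1, without which the fold change was -0.030. Bhlhe23 and Car8 had slightly higher fitted levels in KO retina (0.087 ± 0.072 and 0.072 ± 0.098, SE), and Cabp5 a lower one (-0.12 ± 0.072, SE). Without KO replicate 1 Car8 differed by 0.0096. Scgn differed by 0.021 ± 0.091 (SE) and Grik1 by 0.015 ± 0.072 (SE), with overlapping groups. For these 6 genes the 95% intervals ran from -0.27 at the lowest (Prkca and Cabp5) to 0.28 at the highest (Car8), and for Grik1 alone from -0.13 to 0.17. Scgn ranged widely in KO retina, at 64.9, 58.4 and 48.5 CPM, and without KO replicate 1 its difference was -0.079, and that of Grik1 -0.015.

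The authors' deposited table for this comparison gives the same signs for all 9 genes. Its log2 fold changes are -0.24 for Sebox (adjusted p = 0.25), -0.19 for Vsx1 (adjusted p = 0.50) and -0.14 for Prdm8 (adjusted p = 0.68, DESeq2). The authors' deposited table gives an adjusted p for 17139 genes, of which 109 are below 0.05, and none of these is among the 9.

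At 3 months none of the 9 genes passed the test (edgeR), where 0.225% of all genes were called, none had an unadjusted p below 0.05, against 7.5% of all genes, and DESeq2 called 0. All 9 overlapped between the groups, whereas 15.6% of all genes did not. The median log2 fold change was -0.0062 for the 9 genes (-0.012 without control replicate 2), beside 0.0018 over all genes. The largest differences were those of 2 rod bipolar genes, Car8 and Prkca. Car8 was at 41.1, 32.7 and 43.2 CPM in control and 42.7, 48.6 and 42.7 CPM in KO retina, with a log2 fold change of 0.19 ± 0.098 (SE) and adjusted p = 0.68 (edgeR). Prkca was at 305, 237 and 299 CPM in control and 297, 309 and 305 CPM in KO retina (0.12 ± 0.085, SE, adjusted p = 0.71, edgeR). In both genes control replicate 2, the library with the highest lens markers, was the lowest of all 12. Without it the log2 fold changes were 0.082 for Car8 and 0.0094 for Prkca. The part of lens RNA in these low values was not tested. Vsx1, Scgn, Grik1 and Sebox differed by at most 0.041 on the log2 scale in either direction at this age, with 95% intervals of -0.23 to 0.15 for Vsx1 and -0.16 to 0.14 for Grik1. Without control replicate 2 Vsx1 was at -0.075 and Grik1 at -0.056.

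**Figure D3:**
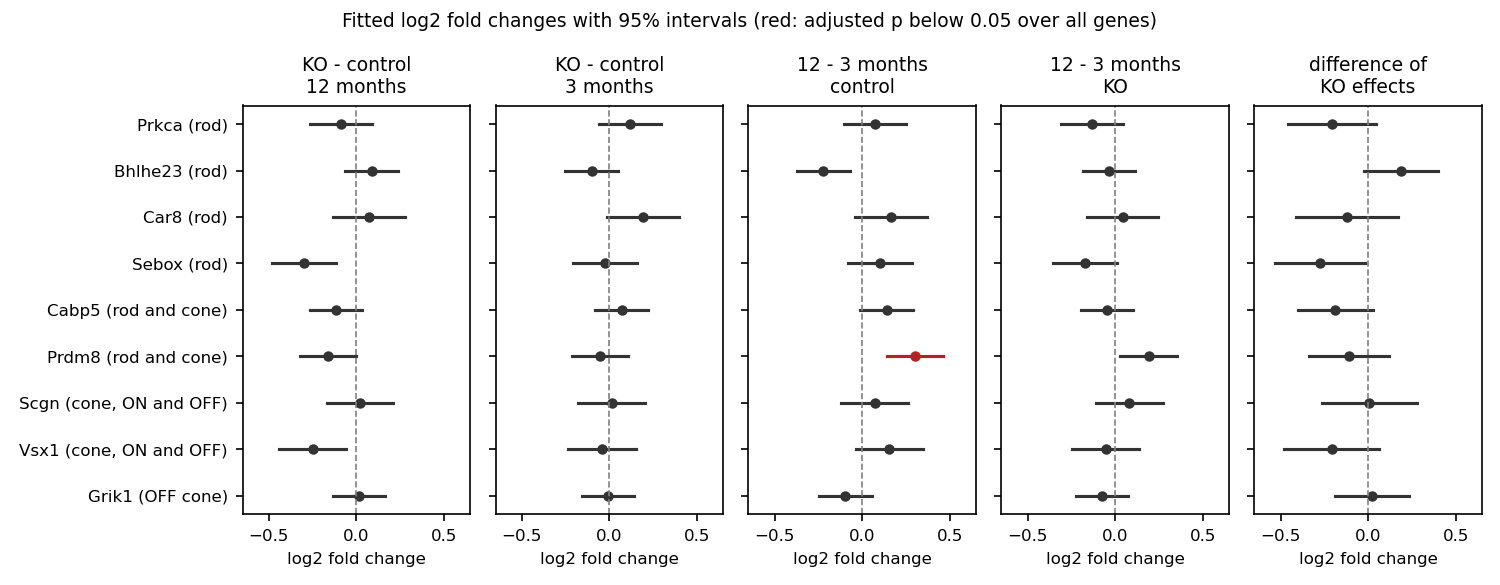
Fitted log2 fold change (point) and 95% interval (line) of the 9 bipolar genes in the 5 comparisons, grouped from rod to OFF cone. Only Prdm8 with age in control retina, drawn in red, passed an adjusted p of 0.05 over all genes; Grik1 stays within 0.097 of 0 in all 5.

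The KO effect at 12 months minus that at 3 months passed for none of the 9 genes (adjusted p = 0.9990 or more, edgeR), where 0.127% of all genes were called. One gene, Sebox, had an unadjusted p below 0.05, as did 4.33% of all genes, and DESeq2 called 0. The difference was -0.28 ± 0.12 (SE) for Sebox, -0.21 ± 0.13 (SE) for Vsx1 and -0.21 ± 0.12 (SE) for Prkca, which was -0.098 without 3m-Control replicate 2. For Vsx1 it was -0.11 without 12m-Control replicate 1. It was 0.19 ± 0.10 (SE) for Bhlhe23. For Scgn and Grik1 it was 0.0068 ± 0.13 and 0.021 ± 0.10 (SE), and without 12m-GliaKO replicate 1 -0.092 and -0.0085.

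With age in control retina Prdm8 rose, from 359, 350.2 and 331 CPM at 3 months to 418, 458 and 406 CPM at 12 months in replicates 1 to 3. Every 12-month value lay above every 3-month value. The means were 347 ± 14.1 and 427 ± 27.1 CPM (SD, n = 3), a 1.23-fold difference (log2 fold change 0.30 ± 0.077 SE, adjusted p = 0.046, edgeR). Prdm8 was the only one of the 9 genes called, beside 2.11% of all genes in either direction and 1.4% called higher. DESeq2 called the same number, 1, and Bhlhe23 was the other gene with an unadjusted p below 0.05, which 12.5% of all genes had. The call was not firm. It was lost in 9 of the 12 fits that left out a library, with adjusted p between 0.064 and 0.24, and kept without 3m-Control replicate 2 (0.036), 12m-GliaKO replicate 1 (0.0047) or 12m-GliaKO replicate 3 (0.035, edgeR). The lowest fold change, 0.25, was that without 12m-Control replicate 2. GENCODE places exons of an antisense transcript, A730035I17Rik, over those of Prdm8, and whether the counting used strand is not stated in these sources. The 6 muscle markers fell with age in control as well, and the 6 lens markers had lower fitted levels. The part of muscle and lens RNA in this call was not tested.

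In KO retina, whose libraries are separate from those of control, Prdm8 was at 332, 333 and 337 CPM at 3 months and at 430.0, 368 and 347 CPM at 12 months. Again all 12-month values lay above the 3-month ones, but the log2 fold change of 0.19 ± 0.077 (SE) did not pass (adjusted p = 0.27, edgeR). Without 12m-GliaKO replicate 1 it was 0.096. The age effects in the 2 genotypes were not shown to differ (difference of -0.11 ± 0.11 SE, adjusted p = 0.9990, edgeR, and -0.20 without 12m-GliaKO replicate 1).

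Bhlhe23, the rod bipolar maturation factor, was at 87.3, 89.1 and 81.0 CPM in 3-month control and at 71.0, 76.2 and 73.3 CPM in 12-month control. These groups did not overlap either, which held for 2 of the 9 genes and 17.5% of all genes. The log2 fold change of -0.22 ± 0.072 (SE) did not pass over all genes (adjusted p = 0.14, edgeR), and it ran from -0.26 to -0.20 with 1 library left out. In KO retina Bhlhe23 was at 75.9 to 85.9 CPM at 3 months and 75.0 to 80.3 CPM at 12 months, a log2 fold change of -0.035 ± 0.072 (SE). The remaining 7 genes did not pass in control. Of the 9, 7 had a higher fitted level at 12 months, with a median of 0.10 beside 0.0016 over all genes. Vsx1 (0.15), Cabp5 (0.14), Sebox (0.10) and Car8 (0.16) were among these, and Grik1 was at -0.096. Without 3m-Control replicate 2 the median of the 9 genes and the value of Car8 were both 0.052, and Grik1 was at -0.15. Without 12m-Control replicate 1 Vsx1 was at 0.056. The 12-month control libraries are also those set against 12-month KO, so the 2 sets of values for Sebox and Vsx1 are not independent. Prkca was at 0.074, and at -0.033 without 3m-Control replicate 2.

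With age in KO retina none of the 9 genes passed (edgeR), where 2.37% of all genes were called. Prdm8 alone had an unadjusted p below 0.05, as did 13.3% of all genes, and DESeq2 called 0. The groups did not overlap for 3 of the 9 genes, Prdm8, Prkca and Sebox, against 22.2% of all genes. Prkca was at 297 to 309 CPM at 3 months and 254 to 296 CPM at 12 months (log2 fold change -0.13 ± 0.085 SE), and -0.073 without 12m-GliaKO replicate 1. Sebox was at 55.1 to 57.1 CPM and 42.9 to 53.8 CPM (-0.17 ± 0.088, SE), and -0.078 without 12m-GliaKO replicate 3. The median over the 9 genes was -0.047.

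**Figure D4:**
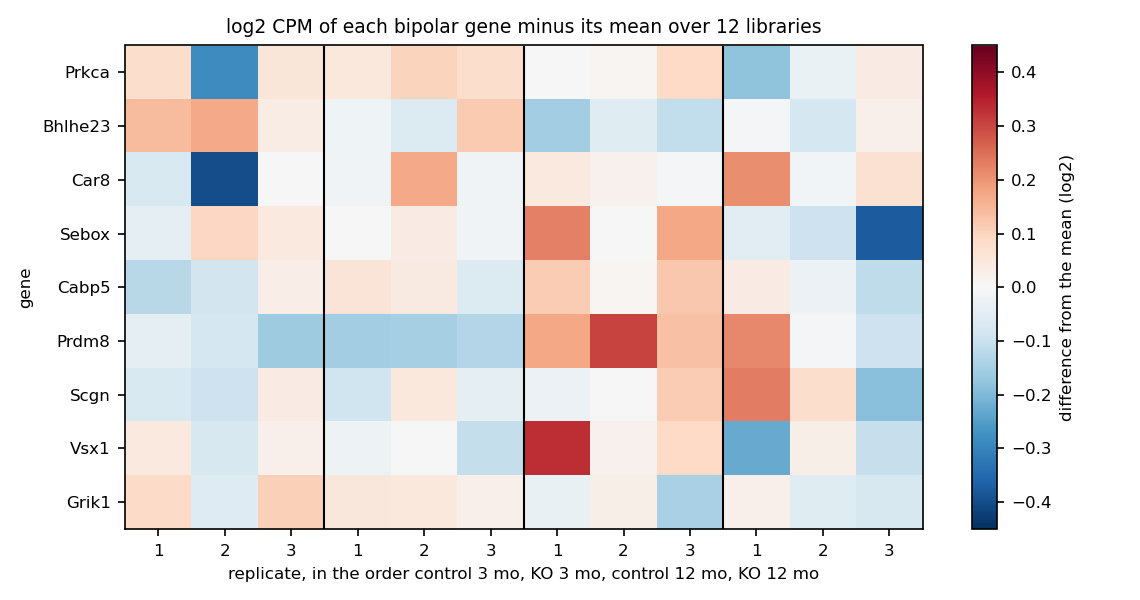
Log2 CPM of each bipolar gene (rows) in each library (columns, by group and replicate) minus that gene's mean over the 12 libraries, in colour. Prdm8 is above its mean in all 3 libraries of 12-month control, and the low cells of Prkca and Car8 are both in replicate 2 of 3-month control.

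The wider bipolar programme was read from 5 lists with 50 genes, all of them tested. At 12 months no gene of these lists passed for KO against control (edgeR), 7 had an unadjusted p below 0.05, beside the 8.7% of all genes, and DESeq2 called 1. The medians were -0.047 for 11 specification factors, -0.091 for 11 genes of the ON glutamate cascade, -0.035 for 5 other rod bipolar genes, -0.048 for 12 ON cone subtype genes and -0.026 for 11 OFF cone subtype genes. Of the ON cascade 10 of 11 had a lower fitted level in KO retina, beside 8346 of the 16475 genes tested. In this list 4 of 11 had an unadjusted p below 0.05 (edgeR), against 8.7% of all genes. The groups did not overlap for 4 of 11, against 16.6%. The lowest adjusted p in the list was 0.32 (edgeR). Markers of other cells went both ways. Lower in fitted level were 8 of 10 for amacrine, 7 of 9 for ganglion (median -0.083) and 6 of 8 for Müller glia (median -0.082). So were 5 of 5 for pigment epithelium (median -0.28) and 5 of 6 for lens (median -0.62). Higher were 6 of 8 for microglia (median 0.15) and 5 of 6 for endothelium and pericyte (median 0.14). Skeletal muscle markers were higher for 5 of 6 (median 0.45). Rod photoreceptor and horizontal cell markers were evenly split. None of these markers passed. Otx2, the homeodomain factor of photoreceptors and bipolar cells, differed by 0.021 ± 0.063 (SE). The 2 most abundant cascade genes, Gnb3 and Gnao1, G protein subunits, differed by 0.039 and -0.051. Gabrr1 (-0.14) and Vstm2b (-0.080) led the rod bipolar list in level, Igfn1 (-0.11) and Serpini1 (0.19) the ON cone list, and Pcdh10 (0.043) and Hcn4 (-0.30) the OFF cone list, and none of these passed. At 3 months no gene of the 5 lists passed (edgeR), 3 had an unadjusted p below 0.05, beside the 7.5% of all genes, and DESeq2 called 0.

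With age 3 of these 50 genes were called in control (1 higher and 2 lower) and 3 in KO retina (1 higher and 2 lower), against 2.11% and 2.37% of all genes, and Grm6 and Grik3 were among them in both. Grm6, the mGluR6 receptor of rod and ON cone bipolar cells, fell from 392 ± 24.7 to 317 ± 27.0 CPM in control and from 350 ± 6.84 to 270.2 ± 11.8 CPM in KO retina (SD, n = 3). Its log2 fold changes were -0.31 ± 0.073 and -0.37 ± 0.073 (SE), with adjusted p = 0.028 and 0.0065 (edgeR). Grik3, a kainate receptor subunit, rose from 12.8 ± 0.481 to 19.4 ± 1.30 CPM in control and from 11.2 ± 0.323 to 16.6 ± 2.52 CPM in KO retina (SD, n = 3), by 0.59 ± 0.12 and 0.56 ± 0.12 (SE, adjusted p = 0.0069 and 0.012, edgeR). In control, the Grm6 call was lost without 3m-Control replicate 2, 12m-Control replicate 1 or 3, or any 3m-GliaKO library (adjusted p up to 0.16, edgeR), and also when only the groups compared were fitted (adjusted p = 0.12). In KO retina, the Grm6 call was lost without 3m-GliaKO replicate 3 (adjusted p = 0.058), and the Grik3 call without any 3m-GliaKO library or 12m-GliaKO replicate 2 or 3 (up to 0.082, edgeR). In control the Grik3 call held without any 1 library. No specification factor and no ON cone subtype gene passed in either genotype. With age in KO retina 5 of 12 ON cone subtype genes had an unadjusted p below 0.05 (edgeR), against 13.3% of all genes. The groups did not overlap for 6 of the 12, against 22.2%. Over the 50 genes these counts were 14 and 20. For the 5 other rod bipolar genes they were 4 and 4, and for the 11 OFF cone subtype genes 3 and 3. For the 11 ON cascade genes they were 2 and 3, and for the 11 specification factors 0 and 4. In control they were 2 and 3 for the ON cone list, against 12.5% and 17.5% of all genes. They were 3 and 4 there for the other rod bipolar genes and 2 and 1 for the OFF cone list. For the ON cascade they were 2 and 3, and for the specification factors 2 and 2. Beside the bipolar lists, 1 of 8 microglia markers in control and 2 of 8 in KO retina were called higher with age (edgeR). All 8 had a higher fitted level at 12 months in both genotypes. The 8 microglia markers summed to 45.3 to 46.6 CPM in 3-month and 60.0 to 61.4 CPM in 12-month control. In KO retina the sums were 49.2 to 49.8 and 62.5 to 67.0 CPM. With age in KO retina 1 of 8 rod photoreceptor markers was called higher. Called lower were 1 of 8 cone photoreceptor and 1 of 5 pigment epithelium markers (median of the latter list -0.63). None of 10 amacrine, 6 horizontal or 9 ganglion cell markers passed with age (edgeR). The part of other cell types in these values was not tested.

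The genes whose log2 CPM followed that of 4 of the bipolar genes most closely over the 12 libraries were found by the root mean square difference after centring each gene on its mean, among 14085 named genes with a mean of at least 1 CPM. For Prkca these were Ecpas (0.038), Trip12 (0.042) and Adam22 (0.042). For Scgn they were Pcp4, Atp5h and Mrps33 (0.046, 0.046 and 0.051). Vsx1 had no neighbour as close, with Tvp23a (0.064), Plekhd1 (0.072) and Irgq (0.074), and Grik1 had Chka (0.037), Samhd1 (0.038) and Dexi (0.044). None of these 12 genes is on the bipolar lists. The spread of the 4 genes themselves on this scale was 0.11, 0.11, 0.13 and 0.070. The log2 CPM of Prkca was 7.89 in 3m-Control replicate 2 and 7.99 in 12m-GliaKO replicate 1, and 8.14 to 8.27 in the other libraries. Its closest genes may thus rest largely on these 2 outlying libraries. Scgn was at 6.02 and 5.60 in 12m-GliaKO replicates 1 and 3, and at 5.70 to 5.90 in the other libraries. Vsx1 was at 5.66 in 12m-Control replicate 1, 5.10 in 12m-GliaKO replicate 1 and 5.22 to 5.41 in the others. The same limit may hold for the genes closest to these. The search was not repeated without any of these libraries.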

How the data were processed

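The submitters' processing notes name HISAT2 2.1.0, featureCounts 1.6.4, DESeq2 1.22.1 and the build GRCm38. For each of 12 libraries a file of raw counts by Entrez ID was deposited. A headerless table of the 12-month comparison was deposited by the authors too. Its columns, deposited without names, were read as a mean normalized count (a signal), a log2 fold change with its standard error, a Wald score, and a raw and an adjusted p-value. The sources used here state neither the strand setting nor the filters. Both reads of a pair were probably counted, since 60.7% to 70.2% of counts from 1 to 20 were even, so counting errors given here are understated.

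Of 27179 gene IDs 25275 were named from RefSeq (GRCm38.p6). In edgeR 4.0.16 (R 4.3.3), genes were filtered with filterByExpr (16475 left) and scaled by TMM. The robust quasi-likelihood model had 1 term per group over all 12 libraries. Adjustment was by Benjamini-Hochberg over all genes, with a threshold of 0.05. CPM values are TMM-scaled, and log2 CPM used a prior count of 2. Intervals are 95%. Exon lengths are unions over GENCODE M21 transcripts. The scripts were tested on simulated data.

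The genes named are all 9 bipolar genes, from each list up to 4 passing genes or else the 2 with the highest mean CPM, and the 3 closest genes in pattern to Prkca, Scgn, Vsx1 and Grik1. The genes and lists were chosen with earlier results of these data known, the 2 motifs in capitals after the windows were seen, and Xist and Ddx3y after their values were seen. Of the genes this rule names, 2 are not reported here. Alternatives were RLE factors, 2 other filters, DESeq2 1.42.0, only the groups compared, the replicate number as a block, and each library left out.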

Additional observations from a re-analysis of the deposited data

How the results depend on the processing

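The count of 0 of the 9 bipolar genes called was kept under all alternatives for KO against control at both ages, for age in KO retina and for the difference of KO effects. With age in control the count of 1 fell to 0 with a filter of at least 1 CPM and with only the groups compared, and ran from 0 to 1 with 1 library left out. Over all genes, DESeq2 called 127 for KO against control at 12 months, 63 at 3 months, 583 with age in control, 596 with age in KO and 41 for the difference of KO effects, against 35, 37, 347, 390 and 21 with edgeR. Without a filter on low counts 64 were called at 12 months, and with only the groups compared 198 with age in control. With 1 library left out these counts ran from 13 to 166, 21 to 41, 201 to 479, 187 to 717 and 14 to 29. The lowest counts were those without 12m-Control replicate 2 (12 months, and age in control) and 3m-GliaKO replicate 3 (the others), and the highest at 12 months, with age in KO and for the difference those without 3m-Control replicate 2.

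Signs that changed were those of values near 0, and only with 1 library left out. The ranges of log2 fold change were, at 12 months, -0.079 to 0.13 for Scgn and -0.031 to 0.054 for Grik1. At 3 months they were -0.025 to 0.054 for Scgn, -0.056 to 0.024 for Grik1 and -0.060 to 0.0051 for Sebox. With age in control the range was -0.033 to 0.14 for Prkca. With age in KO they were -0.12 to 0.0062 for Vsx1, -0.020 to 0.18 for Scgn, -0.072 to 0.022 for Bhlhe23 and -0.020 to 0.11 for Car8. For the difference of KO effects they were -0.092 to 0.11 for Scgn and -0.024 to 0.071 for Grik1.

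Same-numbered libraries did not deviate together (correlations of -0.15 to 0.082 across genes), so the numbers were not taken as pairs. With the replicate number as a block 40, 38, 317, 368 and 22 genes were called, in the same order, and Prdm8 with age in control kept its call (adjusted p = 0.045, edgeR). The block changed no other call among the 9 genes.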
